A study of Mus musculus with 11 samples.

Results

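Arteries and veins are lined by endothelial cells (EC) that differ in the genes they express, and 8 such genes were followed in single cells of perigonadal white fat (pgWAT), 4 arterial (Gja4, Gja5, Sox17 and Hey2) and 4 venous (Nr2f2, Vwf, Selp and Sele). Each symbol mapped to 1 of the 23507 gene rows of the count table. EC were taken as cells in which the summed level of Pecam1, Cdh5 and Kdr was at least 100 CPM (read counts scaled to a common total of reads in genes per cell) and Pdgfra was below 20 CPM, and 672 of 3261 cells met this rule. The cells were the stromal vascular fraction of male mice (ids 1, 4 and 8) and female mice (ids 2, 3, 5 and 6/7, the last of which stands for 2 animals). All mice carried the Pdgfrb-eGFP transgene on the C57BL6/J background, so that cells with an active Pdgfrb promoter, among them the mural cells around vessels, fluoresced green. Ages are not given in the labels. Cells had been sorted onto 11 plates by GFP, by CD31 (the protein of Pecam1) and on some plates by DPP4, and each plate held 1 mouse id, so a difference between mice cannot be told apart from a difference between plates or sorts.

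Arterial identity is set by Notch signalling with SOXF transcription factors, of which Sox17 is a member, and Hey2 encodes a transcriptional repressor switched on by Notch. Gja4 and Gja5 encode connexin 37 and connexin 40, which form gap junctions between arterial EC; connexin 37 is also known from lymphatic valves. In veins the nuclear receptor COUP-TFII, the product of Nr2f2, holds Notch signalling down, and Nr2f2 is active in lymphatic EC and in many mesenchymal cells as well. Vwf encodes von Willebrand factor, which EC store in granules together with P-selectin (Selp), and E-selectin (Sele) is made by EC after an inflammatory stimulus. Most vessels of fat are capillaries, which carry neither programme in full.

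The promoters of the pair of members with the fewest reads in EC are shown, because reads of both lay mainly in other classes (described further on). The sequences are RefSeq's on build GRCm38.p6 and run from 250 bases before to 30 bases after the annotated start, 5′ to 3′, with capitals for matches to GTGGGAA (the core bound by RBPJ, the DNA-binding partner of Notch) or TATAAA (the TATA box), searched on both strands.
Hey2 (chr10:30842754-30843033, minus strand): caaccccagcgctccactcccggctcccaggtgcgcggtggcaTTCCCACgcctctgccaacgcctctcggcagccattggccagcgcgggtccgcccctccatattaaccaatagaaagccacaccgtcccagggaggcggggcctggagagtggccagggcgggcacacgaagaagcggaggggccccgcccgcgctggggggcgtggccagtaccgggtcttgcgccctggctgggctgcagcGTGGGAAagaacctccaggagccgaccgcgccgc
Sele (chr1:164047984-164048263, plus strand): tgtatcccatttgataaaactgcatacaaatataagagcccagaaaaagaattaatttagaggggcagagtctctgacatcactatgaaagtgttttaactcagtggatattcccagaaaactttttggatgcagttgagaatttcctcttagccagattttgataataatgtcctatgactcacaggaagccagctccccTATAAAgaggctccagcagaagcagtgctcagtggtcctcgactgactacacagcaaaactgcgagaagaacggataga
The Hey2 window held GTGGGAA at 2 places, once on each strand, and Sele held 1 TATAAA. Of 32851 promoters of 300 bases, 6.38% held at least 1 GTGGGAA, 0.256% held at least 2 matches and 13.6% held TATAAA. Promoters of 6 of the 8 members were matched, and Gja4, Gja5, Nr2f2 and Selp held neither motif in this window. No promoter of these 6 held a CArG box, the site of serum response factor in smooth muscle genes, which 1.63% of all promoters held. A match is a run of letters, not a measured binding site.

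The EC came from 5 mouse ids with at least 10 EC each, 190 from male mouse 1, 38 from male mouse 8, 216 from female mouse 2, 59 from female mouse 5 and 167 from female mouse 6/7; mouse 3 gave 2 and mouse 4 none. The median EC had 526614 reads in genes (range 142641 to 2881056), and per mouse the median ran from 280497 in mouse 8 to 839722 in mouse 2. At the median depth 10 CPM corresponds to about 5 reads, and a gene was counted as detected in a cell at 10 CPM or more. Reads were counted without molecular identifiers, so intervals of shares (95%, exact Clopper-Pearson) and limits set by a count of 0 cover counting error only. Of the 672 EC, 155 also carried markers of another class, 130 of them mural markers (Rgs5, Kcnj8, Abcc9, Myh11 and Notch3, at least 100 CPM in sum), 14 the lymphatic marker Prox1 (at least 10 CPM) and 18 macrophage markers, with some cells in more than 1 group. These cells are kept below, and the main values are given for the 517 other EC too. Without these cells Gja5 fell from 1.51 to 0.154 CPM (1 cell at 10 CPM), Selp from 0.369 to 0.105 CPM, and the share with Nr2f2 from 11.8% to 8.90%, while Sox17 stayed at 45.6%. All 3261 cell names were distinct.

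**Figure D1:**
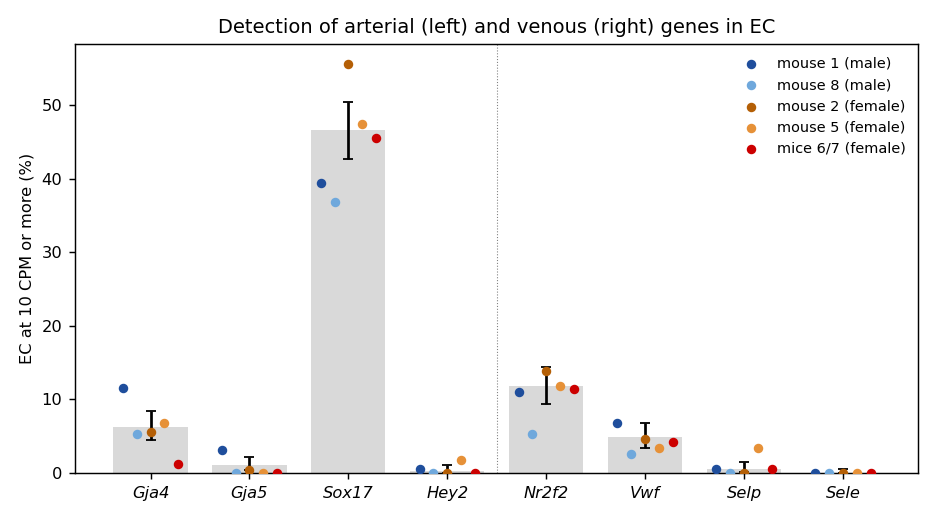
Share of EC (%) in which each gene reached 10 CPM, for arterial genes (left of the dotted line) and venous genes (right). Bars are all 672 EC with the exact 95% interval, and points are the 5 mice with at least 10 EC; Sox17 stood at 46.6%, Nr2f2 at 11.8% and each other gene at 6.25% or lower.

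Sox17 was the member found most often. It reached 10 CPM in 313 of 672 EC, 46.6% (interval 42.8 to 50.4%). Nr2f2 followed with 79 cells, 11.8% (9.42 to 14.4%), then Gja4 with 42 cells, 6.25% (4.54 to 8.35%), and Vwf with 33 cells, 4.91% (3.40 to 6.83%). Gja5 was detected in 7 EC, Selp in 4 and Hey2 in 2, and Sele had no read in any of the 672 EC, which allows a share of up to 0.446% of cells with a read. For comparison, of general EC genes that the rule did not use, Cldn5 was detected in 97.6%, Ptprb in 81.0% and Tie1 in 67.7% of EC, the 13 capillary genes in a median of 82.6%, and the median of all 23507 genes was 2.08%. Each of the 8 members, Sox17 included, lay below these 3 genes. Macrophages (132 cells, median 647760 reads), in which most of these genes are not expected, gave 1 cell at 10 CPM of Sox17, 3 of Nr2f2, none of Gja4 or Hey2, 1 each of Gja5 and Selp, and 7 of Vwf. The share with Vwf was thus 5.30% (2.16 to 10.6%) in macrophages and 4.91% in EC, and after thinning to 100000 reads per cell 7.58% and 7.59%, so by share of cells Vwf did not stand above this class. By level it did, with 6.21 CPM in EC and 1.99 CPM in macrophages. In the 2115 adipose stem cells (defined further on) the shares with Vwf were lower, 0.331% at 10 CPM and 1.61% after thinning. Selp, with 1 macrophage at 10 CPM, had 0.758% against 0.595% of EC at 10 CPM but 0.758% against 1.19% after thinning.

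Levels between genes were compared per kilobase of exon, since longer transcripts yield more reads. Sox17 had 33.9 ± 18.1 CPM per kb (SD over 5 mice), Gja4 13.8 ± 11.4, Nr2f2 1.69 ± 0.383, Vwf 0.356 ± 0.392, Gja5 0.207 ± 0.383, Selp 0.190 ± 0.340 and Hey2 0.0170 ± 0.0268. The step from Nr2f2 to Vwf was the one with no overlap between mice. Sox17 stood above Gja4, and Gja4 above Nr2f2, in 4 of 5 mice each, with overlapping ranges. In the 517 EC without other markers Gja4 had a mean of 1.93 ± 2.68 CPM per kb and stood above Nr2f2 (1.196 ± 0.680) in 1 of 5 mice, Sox17 stood above Gja4 in 5 of 5, and Nr2f2 above Vwf in 4 of 5. Vwf, Gja5 and Selp did not differ beyond their spread.

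Sox17 in EC summed to 88.4 CPM in male mouse 1, 67.6 in male mouse 8, 229 in female mouse 2, 156 in female mouse 5 and 268 in female mouse 6/7. Both males lay below the 3 females, with no overlap. Of the 8820 genes tested between the sexes, 35.7% showed the same order without overlap, so this separation is common to many genes. In the edgeR quasi-likelihood test with TMM factors the difference, female minus male, was 0.71 on the log2 scale (SE 0.39, adjusted p = 0.656) and was not called. Scaling by library totals alone gave 1.48, while it moved the median of all genes from -0.02 to 0.73. The share of cells with Sox17 was more even than the level, from 36.8% in mouse 8 to 55.6% in mouse 2. Among cells with at least 10 CPM the median level was 147 CPM in mouse 1, 184 in mouse 8, 279 in mouse 2, 326 in mouse 5 and 480 in mouse 6/7, so the mice were further apart in the level of positive cells than in their share.

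Against adipose stem cells (ASC, Pdgfra at 20 CPM or more without the EC markers), Sox17 was close to an on-off difference. In the 2115 ASC it had 73 reads in all, 0.0482 CPM, and reached 10 CPM in none. Within the 5 mice that gave at least 10 cells of both classes, the EC level was 10.88 higher on the log2 scale (SE 0.97, adjusted p = 2.9e-04, edgeR quasi-likelihood test with the mouse as a block). Of the 12321 genes tested in this comparison 21.2% were called, 9.14% higher and 12.1% lower in EC. Of the 4 members that entered it, Sox17, Gja4 and Vwf were called higher in EC; these 3 passed the count limit (above 600 reads in at least 2 sums) only through EC, their ASC sums being at most 24, 154 and 141 reads, so their count and direction carry no support of their own. For Nr2f2 the difference was -0.22 (SE 0.29, adjusted p = 0.624). Gja5, Hey2, Selp and Sele were too low for the count limit. Mural cells (82 cells) had 2.87 CPM of Sox17, 1 of which held 68.4% of the reads, and macrophages (132 cells) had 0.528 CPM.

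The gene most like Sox17 across single EC was Cxcl12, a chemokine of arterial and capillary EC, with Pearson r = 0.28 of log2(CPM + 1) centred within mice over 672 cells. Esam (0.26), Zfp36 (0.25), Ly6c1 (0.25) and Tinagl1 (0.23) came next, and among the 517 EC without other markers Cxcl12 stayed first at 0.27. All these points share libraries and depth, and the correlations are weak. To see what else went with Sox17, EC with at least 10 CPM (313 cells) were set beside EC with no Sox17 read (187 cells) in each mouse, a split made after the values were seen and therefore described without a test. Hey1, a Notch target related to Hey2, was higher in the Sox17 cells of 5 of 5 mice, at 50.3 against 5.74 CPM over all cells. Sema3g, an arterial semaphorin, was also higher in 5 of 5 mice (13.1 against 1.03 CPM), as was Cxcl12 (2086 against 1342 CPM). These were the 3 of 22 other arterial genes in this split that were higher in all 5 mice; 4 were higher in 4 mice, 12 in 3, 1 in 2, and Stmn2 and Ltbp4 in 1. Dll4, the arterial Notch ligand, was higher in 2 of 5 mice, at 216 against 198 CPM. Of 9458 genes at 5 CPM or more, 4.82% were higher in all 5 mice, and 1.82% were lower.

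The lymphatic genes lay on the other side of that split. Lyve1, a hyaluronan receptor of lymphatic EC and some macrophages, had 0.524 CPM in cells with Sox17 and 211 CPM in cells without. Flt4, the receptor of lymphatic growth factors, was lower in the Sox17 cells of 5 of 5 mice (61.9 against 239 CPM), and Prox1, the regulator of lymphatic identity, in 4 of 5 (0.269 against 25.0 CPM). Of the 14 EC with Prox1 at 10 CPM or more, 1 reached 10 CPM of Sox17. In the 517 EC without other markers (236 with Sox17, 155 with no read) Hey1, Sema3g and Cxcl12 were again higher in 5 of 5 mice, Lyve1 was lower in 4 (0.628 against 40.1 CPM) and Flt4 in 4 (72.6 against 117 CPM). Prox1, kept under 10 CPM in these cells by the rule, was higher in 2 mice and lower in 1 (0.0925 against 0.133 CPM). Lymphatic reads remained in the 517 EC: the lymphatic chemokine gene Ccl21a had 147 CPM and reached 10 CPM in 16.4%. Among these 517 EC Nr2f2 and Vwf were each higher in 3 mice and lower in 2, and Gja4 was higher in 1 and lower in 3. In the split of all EC the other members showed no single direction either. There Nr2f2 was lower in the Sox17 cells of 4 mice and higher in 1, Vwf was higher in 4 and lower in 1, and Gja4 was higher in 2 and lower in 3. The cells with Sox17 were also deeper (median 577344 against 406204 reads), and the part of depth in these differences was not tested.

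**Figure D2:**
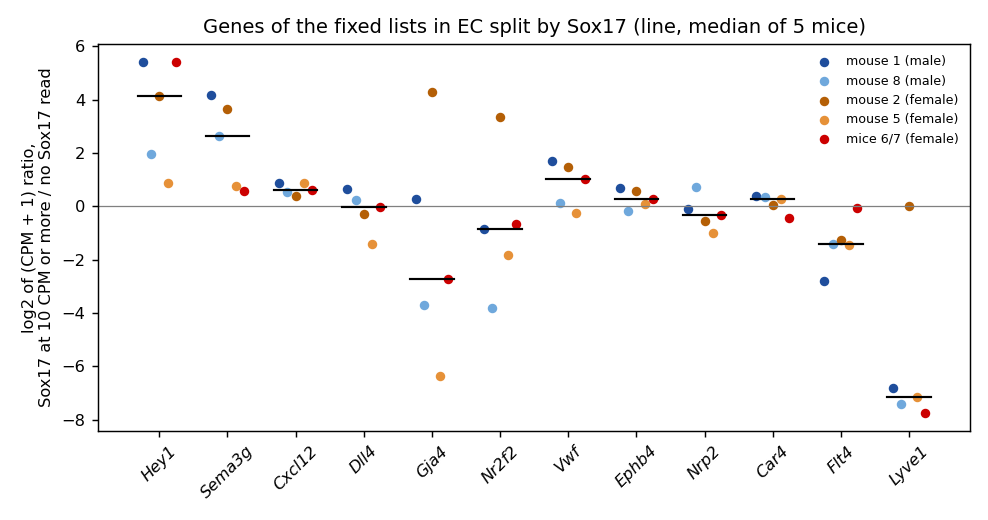
Log2 ratio of CPM + 1 between EC with Sox17 at 10 CPM or more and EC with no Sox17 read, 1 point per mouse, with the median of 5 mice as a line. Hey1, Sema3g and Cxcl12 lie above 0 in all 5 mice and Flt4 lies below it in all 5, whereas points for Gja4, Nr2f2 and Vwf fall on both sides.

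Most EC with Gja4 also carried mural markers, and the reads of mouse 5 came mainly from 1 EC with Prox1 instead. In EC it summed to 42.9 CPM in mouse 1, 6.26 in mouse 8, 22.5 in mouse 2, 42.1 in mouse 5 and 2.26 in mouse 6/7, and a single cell held 88.1% of the reads of mouse 5 and 72.2% of those of mouse 8. The cell of mouse 5 had 1878 CPM of Gja4, 424 CPM of Prox1 and no read of the 5 mural markers, and without it mouse 5 stood at 5.11 CPM. Over all EC, 10 cells held 60.0% of its reads. Of the 42 EC with Gja4 at 10 CPM or more, 33 (78.6%) carried mural markers at the limit above, against 15.4% of the other 630 EC. The summed level of the full list of 10 mural genes had a median of 1546 CPM in these 42 cells (0 to 8260) and of 9.64 CPM in the others (0 to 4222), and all 10 genes had reads in both groups. The EC markers of the rule had a median sum of 751 CPM in the 42 cells and 1488 CPM in the others. Where the mural markers came from was not tested.

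Without the cells that carried other markers, Gja4 was detected in 7 of 517 EC, 1.35% (0.546 to 2.77%), and its level was 4.12 CPM against 85.0 CPM in the 130 EC with mural markers. In these 517 cells it stood at 11.2 CPM in mouse 1, 0 in mouse 8, 2.00 in mouse 2, 1.63 in mouse 5 and 1.40 in mouse 6/7. A single cell of mouse 1 held 61.6% of the Gja4 reads of the 517 EC and 88.9% of those of its mouse. The EC with mural markers had more Gja4 than the EC without other markers in all 5 mice. Mouse 5 gave only 2 EC with mural markers (22.9 CPM) and mouse 8 only 4 (80.9 CPM). The cell of mouse 5 with most Gja4 reads carried Prox1 and lies in neither group. Gja4 was also found in 4 of the 14 EC with Prox1, at 129 CPM in sum, or 22.1 CPM without the 1 cell of mouse 5. Its nearest genes over all EC were Vtn (r = 0.63), Agtr1a (0.63), Pdgfrb (0.63), Kcnj8 (0.58) and Aspn (0.57), of which Pdgfrb and Kcnj8 are genes of pericytes. Among the 517 EC these gave way to Tmod2 (0.39), Mmrn1 (0.36), a gene of lymphatic EC, ENSMUSG00000095320 (0.33), Cp (0.31) and the lymphatic chemokine gene Ccl21b (0.29).

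In mouse 1 Gja4 moved with the sort as well. On plate 172, sorted for PDGFRB-positive cells, 24 of 26 EC carried mural markers and Gja4 stood at 132 CPM, whereas on plate 171 of the same mouse, sorted for CD31, 23 of 164 EC did and Gja4 stood at 26.8 CPM. Other mice did not follow this order. On plate 843 of mouse 5, labelled PDGFRB-positive, 2 of 59 EC carried mural markers (Gja4 at 5.11 CPM without the cell with Prox1). On plate 874 of mouse 2, labelled PDGFRB-negative and CD31-positive, 57 of 215 EC did and Gja4 stood at 21.7 CPM. On plates sorted for CD31-positive cells, Gja4 was detected in 22 of 581 EC (3.79%). Between EC and ASC Gja4 was 7.72 higher in EC on the log2 scale (SE 1.05, adjusted p = 1.8e-03, edgeR). It was called under each of the 13 settings that gave it a value. Gja4 entered through EC sums alone, its largest ASC sum being 154 reads, so the call and its repeats carry no support of their own. In EC without other markers, and on CD31-positive sorts, it fell below the count limit and was not tested. In ASC it had 0.428 CPM. Between the sexes it differed by -0.68 (SE 1.203, adjusted p = 0.881, edgeR), and the direction turned to 1.34 without mouse 1.

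**Figure D3:**
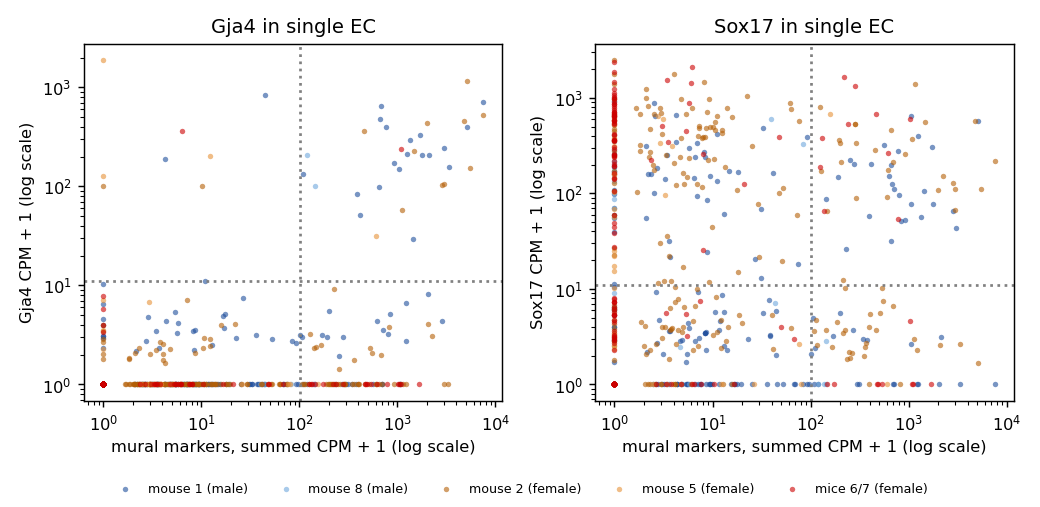
Level of Gja4 (left) and Sox17 (right) against the summed level of 5 mural markers in each EC, both as CPM + 1 on log scales, coloured by mouse, with dotted lines at 10 and 100 CPM. Of the 42 EC above the Gja4 line 33 lie right of the mural line, while EC with Sox17 lie on both sides of it (236 of 517 EC without other markers).

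Of the cell classes, mural cells had the highest level of Gja4. It stood at 132 CPM over 82 mural cells and was detected in 45 of them, 54.9% (43.5 to 65.9%), or 58.5% against 9.67% of EC after thinning to 100000 reads. Hey2 stood out in the same class, with 21.7 CPM and 22 of 82 cells (26.8%, 17.6 to 37.8%), against 0.0493 CPM and 2 of 672 cells in EC and 0.149 CPM in ASC (EC minus ASC -2.41 on the log2 scale with the lower count limit of 10, adjusted p = 0.267, edgeR). The 2 EC with Hey2 both carried mural markers, and none of the 517 EC without other markers had a Hey2 read. Since 63 of the 82 mural cells came from mouse 1 and no other mouse gave 10, the limit set for a sum, no test over mice was made. Within the class, 43 cells had Myh11, the smooth muscle myosin, at 100 CPM or more and little Kcnj8 or Abcc9, and 21 had the pericyte channel genes Kcnj8 and Abcc9 at 50 CPM or more in sum and little Myh11, a split added after the data were seen. Hey2 had 29.6 CPM in the Myh11 cells (19 of 43 detected) and 0.195 CPM in the Kcnj8 and Abcc9 cells (0 of 21). Gja4 had 162 CPM (34 of 43) and 88.0 CPM (5 of 21). Of the 63 mural cells of mouse 1, 17 held both Gja4 and Hey2 at 10 CPM or more, out of 42 with Gja4 and 20 with Hey2.

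**Figure D4:**
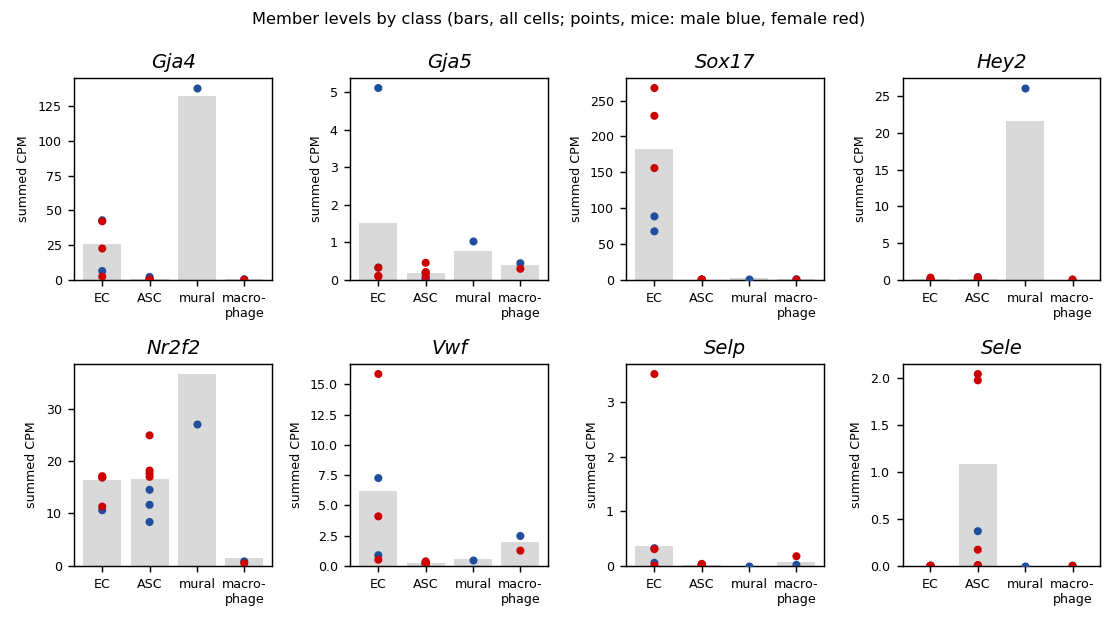
Summed level (CPM, linear axes that differ between panels) of each gene in EC, ASC, mural cells and macrophages. Bars are all cells of a class and points are mice with at least 10 of its cells; Sox17 is high in EC alone among the 4 classes, Gja4 and Hey2 are highest in mural cells, Nr2f2 is found in EC, ASC and mural cells, and Sele in ASC.

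Gja5 was nearly a gene of 1 mouse in these EC. It stood at 5.12 CPM in mouse 1, 0.327 in mouse 8, 0.104 in mouse 2, 0.319 in mouse 5 and 0.0848 in mouse 6/7. Of its 645 reads 604 came from mouse 1, and 1 cell held 49.0% of all. Plate 172 held 5 of the 7 EC with Gja5 at 10 CPM or more, and 6 of the 7 carried mural markers. All 7 also had Sox17 and 6 had Gja4. Its nearest gene was Sema3g (r = 0.28), followed by Gja4 (0.28), Pde3a (0.26), Notch3 (0.26) and Arhgef17 (0.26). With the lower count limit of 10 the sex difference was -4.55 on the log2 scale (SE 1.63, adjusted p = 0.788, edgeR), and the EC to ASC difference was 1.40 (SE 1.21, adjusted p = 0.502). In the 581 EC of CD31-positive sorts Gja5 reached 10 CPM in 2 cells.

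Nr2f2 was the venous gene with the most even level between mice, and it was found in EC, ASC and mural cells. Its EC level was 16.9 CPM in mouse 1, 10.6 in mouse 8, 17.1 in mouse 2, 11.3 in mouse 5 and 16.9 in mouse 6/7. ASC of the same mice held 11.7, 8.37, 17.6, 18.2 and 25.0 CPM, overlapping the EC. It was detected in more ASC, 500 of 2115 (23.6%, 21.8 to 25.5%), than EC, also after thinning to 100000 reads per cell (29.7% against 17.1%), and in 31 of 82 mural cells (37.8%, 36.7 CPM) and 6 of 18 epithelial cells, while macrophages had 1.47 CPM. Within EC, the cells with Prox1 had the highest level, 84.0 CPM, and 6 of 14 were positive. The sex difference in EC was -0.63 (SE 0.58, adjusted p = 0.770, edgeR), with a change of sign to 0.13 when libraries were scaled by totals alone and to 0.23 in the 517 EC.

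Between plates of ASC, Nr2f2 moved with the DPP4 sort in the only mouse that had both. Plate 875 of mouse 2, sorted as DPP4-negative, had 25.1 CPM (131 of 360 ASC at 10 CPM or more), and plate 709, sorted as DPP4-positive, had 10.4 CPM (68 of 364 ASC). These are single plates and were not tested. The genes most like Nr2f2 across EC were Gm9780 (r = 0.31), Serpine2 (0.29), Arhgdib (0.28), Plac9b (0.28) and Serping1 (0.25), and none of the 5 was among the nearest genes in the EC without other markers, where the highest was Dennd2c (0.21).

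Vwf was low in EC of this fat depot. It stood at 7.25 CPM in mouse 1, 0.871 in mouse 8, 4.08 in mouse 2, 0.497 in mouse 5 and 15.9 in mouse 6/7, and neither sex lay apart. In mouse 2, 1 cell held 61.2% of the reads, and over all EC 10 cells held 75.9%. The difference from ASC, 3.71 on the log2 scale (SE 0.85, adjusted p = 0.0165, edgeR), was past the threshold but lost it without mouse 1 (adjusted p = 0.0616), mouse 2 (0.0667) or mouse 6/7 (0.0569), and in EC without other markers Vwf fell below the count limit. The sex difference was -0.21 (SE 1.501, adjusted p = 0.972, edgeR) and ran from -1.53 to 2.01 over the settings tried. Of the 33 EC with Vwf at 10 CPM or more, 14 (42.4%) carried mural markers, against 18.2% of the others, and without EC that carried other markers it was detected in 18 of 517 (3.48%). Macrophages had 1.99 CPM, with 7 of 132 cells at 10 CPM or more. Its nearest genes had r of at most 0.25 (Pla2r1).

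Selp reached 10 CPM in 4 EC. It stood at 3.51 CPM in mouse 5 and between 0.00496 and 0.322 CPM in the other 4 mice, and 88.9% of the 99 reads of mouse 5 lay in 1 cell. EC with Prox1 held 9.15 CPM (1 of 14 cells). It had 17 reads in 2115 ASC and none in 82 mural cells. With the lower count limit its difference from ASC was 4.64 (SE 1.52, adjusted p = 0.0822, edgeR).

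Sele, the selectin of activated EC, was read in ASC and not in EC. None of the 426038918 EC reads belonged to it, and none in mural cells or macrophages, whereas ASC had 1644 reads, 1.09 CPM. The 229 unnamed cells had 270 reads, 2.10 CPM, of which 98.9% lay in 1 cell of mouse 6/7. Against a floor of 3 reads over all EC the level of ASC was 154-fold higher. Reads of 1 cell are not independent and 10 ASC held 89.0% of the Sele reads, so this ratio is not a bound over cells. By cells, 2.74% of ASC had a read, against a limit of 0.446% of EC. With the lower count limit the gene was called lower in EC (adjusted p = 0.0454, edgeR), a direction fixed by its absence from every EC sum, since it entered through ASC alone. That call rests on 3 of the 5 mice: ASC held 1.97 CPM in mouse 2, 2.04 in mouse 6/7 and 0.171 in mouse 5, and 0 in mice 1 and 8, and outside this comparison mouse 4 had 0.367 and mouse 3 had 0.00753 CPM. With this limit 14.6% of 22772 genes were called, 5.68% higher and 8.9% lower in EC. The ratio to a floor of 3 reads was 133-fold within mouse 2 and 40.1-fold within mouse 6/7. In mouse 2 all 1137 Sele reads of ASC came from plate 875, while 215 of its 216 EC came from plate 874.

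In ASC, 58 of 2115 cells had a Sele read and 42 of these had 1 to 3 reads. The 16 cells at 10 CPM or more held 8 to 287 reads each (median 82.5 CPM, highest 385). All 16 had Col1a1, Dcn and Lum, matrix genes that the class rule did not use, at 10 CPM or more, as did nearly all other ASC. Of the EC markers, Pecam1 and Cdh5 each reached 10 CPM in 1 of the 16 cells and Kdr in 2 (highest 67.1 CPM). In other ASC the shares were 19.0% for Pecam1, 0.333% for Cdh5 and 1.48% for Kdr. None of the 16 reached 10 CPM of Dpp4, against 32.6% of the other ASC, but 10 of the 16 came from the DPP4-negative sort of plate 875, where 2.00% of other ASC reached it. Outside plates 709 and 875 the numbers were 0 of 6 and 30.04%. Plate 875 (DPP4-negative, mouse 2) gave 32 of 360 ASC with a read, 8.89%, and plate 709 (DPP4-positive, same mouse) gave 0 of 364, which allows up to 0.824%. At a common depth of 100000 reads per cell the shares were 3.89% (2.14 to 6.44%) on plate 875, 1.63% on plate 42, 1.13% on plate 131 and 1.11% on plate 843. They were 0 on plates 43, 129, 172, 344 and 709. Without thinning, no ASC had a Sele read on plates 172, 344 and 709.

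**Figure D5:**
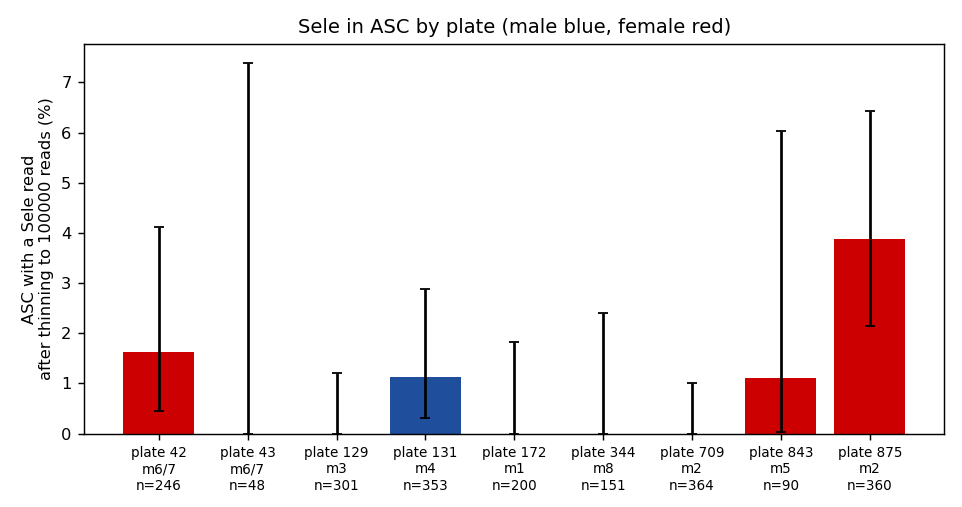
Share of ASC (%) with at least 1 Sele read after every cell was thinned to 100000 reads, by plate, with exact 95% intervals and the mouse and number of ASC under each bar. Plate 875 stands at 3.89%, and 5 of 9 plates with at least 10 ASC are at 0.

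Co-detection in single EC was compared with the number that independent detection within each mouse would give. Gja4 and Gja5 met in 6 cells, where 0.750 was the number under independence, all 6 in mouse 1. Gja4 met Sox17 in 25 cells (18.9 under independence). Pairs across the arterial and venous groups met as well: Gja4 and Nr2f2 in 18 cells (4.91), Gja4 and Vwf in 10 cells (2.33), Sox17 and Nr2f2 in 39 cells (37.7) and Sox17 and Vwf in 18 cells (15.2). Nr2f2 and Vwf met in 8 cells (3.91). The number for Gja4 with Nr2f2 was above independence in each of the 5 mice.

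Much of this overlap lay in EC that carried other markers. Among the 517 others Gja4 met Nr2f2 in 2 cells (0.631 under independence) and Vwf in 1 (0.228), Sox17 met Nr2f2 in 22 (21.1), and Sox17 met Vwf in 4 (8.38). Nr2f2 and Vwf met in 3 of these cells (1.62). Deeper cells hold more detected genes, so the number under independence is not free of depth. Across all 672 EC the highest correlation between members was that of Gja4 and Gja5 (r = 0.28), followed by Gja4 and Nr2f2 (0.24), and in the 517 EC these were 0.16 and 0.15.

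By the side rule, which asked for at least 2 of 4 genes of one group at 10 CPM and fewer than 2 of the other, 22 EC were arterial-side, 4 venous-side, 5 met both and 641 neither. The arterial-side cells came from mouse 1 (13), mouse 2 (8) and mouse 5 (1), all 22 had Sox17, 20 had Gja4, and 19 carried mural markers. All 5 cells that met both sides carried mural markers. Among EC without other markers 3 were arterial-side and 3 venous-side. No mouse had 5 cells of each side, so the planned comparison of the sides could not be made. No member at all was at 10 CPM in 296 EC (44.0%), only arterial members were in 270 (40.2%), only venous ones in 45 (6.70%) and members of both groups in 61 (9.08%). The arterial count was mainly one of Sox17, which was detected in 313 EC, against 42 for Gja4, 7 for Gja5 and 2 for Hey2. It is therefore not a count of EC with an arterial programme. At 50 CPM the arterial-side cells were 22 and the venous-side cells 1, on CD31-positive sorts they were 12 and 3, and after thinning to 100000 reads, counting 1 read, they were 44 and 8.

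Genes beyond the 8 members were counted from fixed lists. Of 24 measured other arterial genes 6 were detected in at least 50% of EC: Cxcl12 (96.3%), Sox18 (79.3%), Nrp1 (79.0%), Sox7 (69.3%), Ltbp4 (68.9%) and Notch1 (65.9%). The SOXF relatives Sox7 and Sox18 were thus found in more EC than Sox17. Dll4 was found in 41.7% and Notch4 in 28.7%, Efnb2 in 12.6%, Hey1 in 10.3%, Sema3g in 5.51% and Bmx in 1.64%, and the median of the list was 10.5%. Of the 22 other arterial genes that entered the comparison with ASC 13 were called higher in EC, against 9.14% of all genes tested. Dll4 differed by 11.61 and Jag2 by 9.54 on the log2 scale. With 0.0515 and 0.0469 CPM in ASC, both entered through EC sums alone, which fixed their direction. Other genes of the list, such as Sox18 (0.460 CPM in ASC) and Sema3g (0.0746 CPM), were also too low in ASC to enter without EC sums. The count of genes called higher is therefore not free of the count limit. Another 4 were called lower (Eln, Fbln5, Ltbp4 and Mgp, which encode proteins of the extracellular matrix), against 12.1% of all genes. The median was 2.76, against -0.14 for all genes tested. Of the 13 capillary genes 12 were called higher, so such a count is not particular to arterial genes.

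Of the 10 other venous genes 5 were called higher in EC, Aplnr (11.22), Emcn (9.19), Lrg1 (8.69), Nrp2 (2.64) and Ephb4 (2.62), and 4 lower, among them Ackr1 (-4.17), Il1r1 (-5.07) and Vcam1 (-5.50), with a median of 0.97. Of all genes tested 9.14% were called higher and 12.1% lower. Aplnr, with 0.139 CPM in ASC, entered through EC sums alone. Emcn (0.606 CPM in ASC) and Lrg1 (0.732 CPM) were too low in ASC to enter without EC sums, so their direction carries no support of its own either. Ackr1, the chemokine receptor of venules, was detected in 0.298% of EC, and Emcn, a sialomucin of veins and capillaries, in 65.8%. Icam1, an adhesion molecule induced with Sele, had 58.6 CPM in EC and 129 CPM in ASC (difference -0.68, SE 0.39, adjusted p = 0.255, edgeR). Between the sexes none of the genes of these lists was called in EC. Over all 8820 genes 2 were called, 0.0227%, both higher in females. The 4 members that entered that test were not called under any setting.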

How the data were processed

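The authors sorted single cells of the stromal vascular fraction, prepared Smart-seq2 libraries, demultiplexed with bcl2fastq, aligned with STAR to mm10 with ERCC sequences, quantified with Salmon and imported with tximport; tool versions are not given in the sources used here. They removed shallow, mitochondrial, ERCC-rich and mixed cells. The deposited values are raw counts, whole numbers of reads assigned to each gene in a cell, and strand use is not stated: reads of Gja5, Sox17, Nr2f2 and Selp cannot be told apart from those of overlapping genes on the opposite strand. CPM were taken relative to reads in genes, and ERCC rows were left out. ASC, mural (at least 100 CPM of 5 markers), macrophage (100 CPM of 4 markers) and epithelial (Epcam, 20 CPM) cells were set by markers; 13 cells were mixed and 229 unnamed. No doublet caller was run.

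Counts were summed per mouse and class (at least 10 cells) and tested with edgeR 4.0.16 (TMM, quasi-likelihood F test, two-sided, Benjamini-Hochberg, above 600 counts in at least 2 sums, adjusted p below 0.05, fold above 2.6); log2 differences are female minus male or EC minus ASC, and a standard error is the difference divided by the root of F. The samples are mice, and only 2 males gave EC. DESeq2 1.42.0, R 4.3.3, Python 3.11.15 and scipy 1.17.1 were also used. On simulated counts the sex test recovered 84.3% of genes changed 4-fold and 100% of those changed 8-fold among 9123 genes, and the EC to ASC test recovered 97.9% and 100% among 11657. The simulation gave every gene the same dispersion and had no effect of mouse, plate or sort. These shares therefore do not carry over to genes as variable between mice as Gja4 (SE 1.203 between the sexes) and Vwf (SE 1.501). Named genes are the 8 members, genes of the fixed lists, and the 5 genes with the highest correlation to each member read in at least 5% of EC, among genes read in at least 10% of EC. The members and lists were chosen with earlier results of these data known. Splits by Sox17, of mural cells and of ASC plates, the CD31-sort share, the Sox17 split in EC without other markers, Dpp4 by plate, the EC with Prox1 without 1 cell and the sex term in the EC to ASC model were added after the data were seen.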

Additional observations from a re-analysis of the deposited data

Results flagged for a closer look

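Among ASC of the 4 female mice, the level of Nr2f2 in mouse 6/7, 25.0 CPM, stood apart from the others at 17.0, 17.6 and 18.2 CPM, with a gap to the nearest of 0.848 of the whole range (limit for 4 samples 0.829). Chance sets about 1 in 20 such groups apart. Every member was examined in this way at both ends, and this was the only value past the limit. The 294 ASC of mouse 6/7 are cells of 2 animals on plates 42 and 43 from CD31-negative gates, and the level was alike on both (24.9 and 25.4 CPM). Within mouse 2 the plates ran from 10.4 CPM (709) to 25.1 CPM (875), a wider range than that over the 4 female mice (17.0 to 25.0 CPM).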

How the results depend on the processing

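The count of genes called between the sexes in EC was 2, and it was 4 with library totals alone, 58 with the likelihood ratio test, 126 with DESeq2, and 0 with a limit of 10 counts, 0 without EC that carried other markers and 0 on CD31-positive sorts; leaving out 1 mouse gave 0 to 601, the highest without mouse 1, which leaves mouse 8 as the lone male, assumed to vary like the others. In the quasi-likelihood test 704 genes had an unadjusted p under 0.05. The EC to ASC count, 2615, fell to 884 on CD31-positive sorts (2 mice) and was 1874 to 2601 without 1 mouse; the split of 1126 higher and 1489 lower became 1244 and 1385 with library totals alone. Sex differences that turned were Gja4 at 1.34 without mouse 1 (from -1.85 over the mice left out), Nr2f2 at 0.13 with library totals and 0.23 without EC that carried other markers, and Vwf at 0.74 with library totals, 0.14 with EC at 200 CPM, 1.56 on CD31-positive sorts, 2.01 without mouse 1 and 0.27 without mouse 5 (from -1.53). The Gja4 and Sox17 calls against ASC were kept in every setting that gave them a value, and the Vwf call was lost without mouse 1, 2 or 6/7. At the main count limit these genes entered through EC sums alone, so the repeated calls carry no support of their own. The causes were not tested. A term for the sex difference of the EC to ASC difference, edgeR, called 0 of 12321 genes (842 at an unadjusted p under 0.05), with 2.82 for Sox17 (SE 1.09, adjusted p = 0.702).

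Counting 1 read as detection raised the shares to 19.9% for Gja4, 6.70% for Gja5, 72.2% for Sox17, 28.9% for Nr2f2, 15.6% for Vwf and 2.08% for Selp, and after thinning to 100000 reads they were 3.57% for Gja5, 54.0% for Sox17, 17.1% for Nr2f2 and 7.59% for Vwf. Without EC that carried other markers the share of Gja4 was 1.35%. Co-detection over independence was 45.3 for Gja4 with Gja5 (1 cell) and 0.477 for Sox17 with Vwf without these EC. Leaving out 1 mouse moved the ratio of Gja4 with Gja5, 7.997, to between 0 (without mouse 1) and 8.64.

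The comparison of arterial-side with venous-side EC was not run, nor were its alternatives, because 0 mice had 5 cells of each side under the settings tried for the sides. No paired analysis was possible because male and female mice share no animal; the EC to ASC test has the mouse as a block, and without it 2523 genes were called. The sex comparison rests on 2 male and 3 female mice and is confounded with plates and sorts, and 0 reads of Sele limit cells with a read, not cells that express it.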
